A study of Mus musculus with 6 samples.

Results

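The genes described here are the interferon receptor and JAK-STAT-IRF genes of mouse 3T3 cells: the ligand gene Ifnb1, the receptor chains Ifnar1 and Ifnar2, the signal transducer Stat2, the interferon regulatory factors Irf1, Irf3, Irf7 and Irf9, and the inhibitor Socs1. They were chosen by gene name, with earlier results of these data known, and all 9 genes were found, on 12 of the 55681 probes (35527 gene names) of the array. 3T3 is an established line of mouse embryonic fibroblasts, grown here in DMEM with 10% serum. GapmeR Ntep (an antisense oligonucleotide against the long noncoding RNA Ntep, which RNase H then cuts) or a control GapmeR was applied at 50 nM for 48 h, so every culture carried a transfected GapmeR and none was left untreated. Total RNA of 3 independent experiments gave 1 array per GapmeR and experiment, 6 arrays in all. The question put to these arrays was how the transcriptome of fibroblasts changes when Ntep is silenced.

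Type I interferons such as interferon beta are secreted when a cell senses foreign nucleic acid. They bind a receptor made of the IFNAR1 and IFNAR2 chains, whose bound Janus kinases phosphorylate STAT proteins, and a complex that holds STAT2 and IRF9 then binds interferon-stimulated response elements (ISRE) in DNA. IRF3 and IRF7 switch on the interferon genes themselves, IRF1 carries much of the interferon gamma response, and SOCS1 is an induced inhibitor of the kinases. Several of these components are themselves interferon-induced, and fibroblasts are a classical source of interferon beta.

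The signal of the Ntep probe did not follow the label in every experiment. The probe of Ntep, named A630089N07Rik in the files (chr16:98283712-98283771, mm9), read 472, 91.5 and 226 in experiments 1, 2 and 3 where the label was GapmeR Ntep, and 271, 272 and 361 where it was GapmeR control. It was therefore higher on the array labelled GapmeR Ntep in experiment 1 and lower in experiments 2 and 3, and the groups overlapped (log2 difference -0.48, SE 0.58, limma adjusted p = 0.632). The authors reported efficient silencing of Ntep by this GapmeR in qPCR. Whether the label or the place of the probe on the transcript lies behind the reading in experiment 1 was not tested. Below, Ntep arrays and control arrays mean the arrays that carry these labels, and each direction rests on them. Between 43.7% and 53.3% of all probes were well above background per array. The array of GapmeR Ntep in experiment 2 correlated as closely with the control arrays (mean r 0.972 across tested probes) as with its own group (0.971). All 10 fibroblast markers on the array were well above background on all 6 arrays, and their summed signal was 812200 to 895421 on the control arrays and 558357 to 739729 on the Ntep arrays. Of the immune cell markers, Ptprc, Tyrobp and Fcgr1 were well above background on no array. Of the 7 immune markers tested, 5 had a positive log2 difference and 2 a negative one, and Cd68 was called higher on the Ntep arrays (log2 1.21, adjusted p = 0.0287). With experiments as blocks Csf1r (log2 3.19, adjusted p = 0.0387, and 0.151 without blocks) and Itgam (log2 1.26, adjusted p = 0.0397, and 0.0881 without blocks) were called higher too. The summed signal of the immune marker probes was 45057 to 56204 on the control arrays and 60328 to 112684 on the Ntep arrays, and that of 6 epithelial and endothelial markers 814 to 946 and 1113 to 2204. The part of these marker signals in the results below was not tested. In RNA of whole cultures, fewer cells that express a gene and less RNA per cell cannot be told apart.

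Of the 9 genes, 4 were called lower on the Ntep arrays by their brightest probe and 0 higher: Ifnb1, Irf9, Irf3 and Socs1. The dimmer probe of Irf1 passed as well, which makes 5 genes by any probe, but it reached the minimum signal for testing through the control arrays alone and its brighter probe did not pass. A gene was called when limma's two-sided p for a probe, adjusted by Benjamini-Hochberg over all 30990 tested probes, was under 0.05. By that rule 3.21% of all tested probes were lower and 2.09% higher. At an unadjusted p under 0.05, 7 of the 9 genes were lower and 0 higher, as were 12.5% of all tested probes in each direction. By a 2-fold difference with p under 0.01, taken here before adjustment, 3 were lower by their brightest probe (Ifnb1, Stat2 and Irf9), as were 5.06% of all tested probes. The dim probe of Irf1 also met these limits, though its bound, given below, is under 2-fold. For the 7 genes past the unadjusted threshold (8 probes), every Ntep array lay below every control array on each probe of the gene, which was so for 15.1% of all tested probes. The median log2 difference over the 9 genes (1 probe each, the brightest) was -0.88, beside 0.06 over the 22034 genes tested. Calls depended on the arrays and on the fit. With experiments paired as a replicate block, Stat2 and Irf7 also passed. By that fit 6 genes were called by their brightest probe and 7 by any, with 7.31% of all probes lower. Leaving out any 1 array left between 0 and 3 genes called, with 0% to 2.9% of all probes lower. The direction of these 7 genes was the same in each experiment and under each of the alternatives computed.

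**Figure D1:**
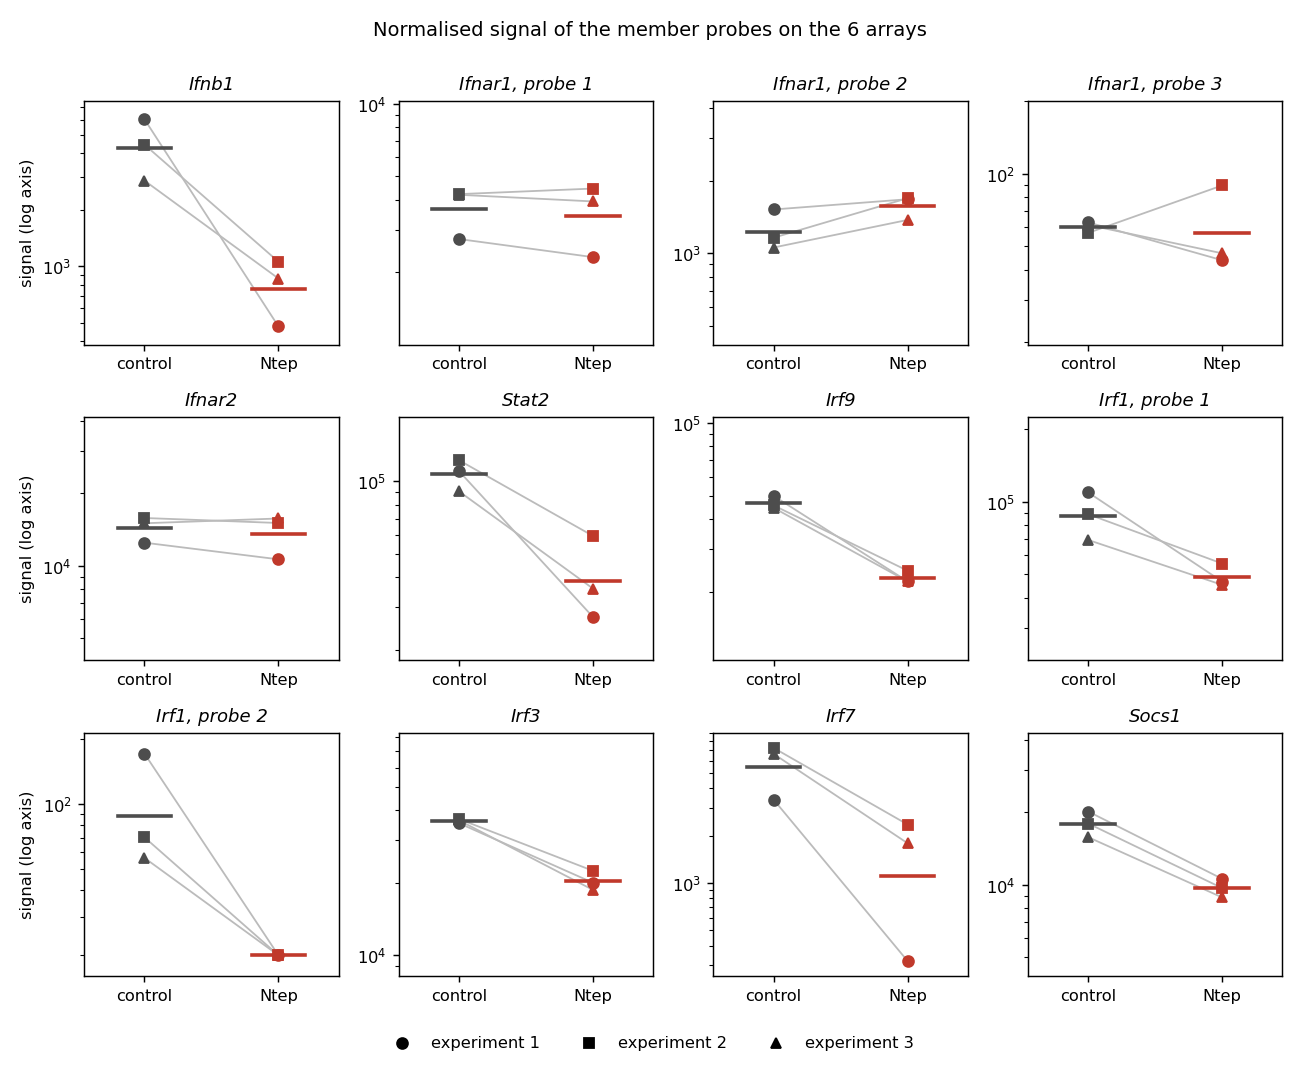
Quantile-normalised signal (vertical log axis, a different range in each panel) of the 12 probes on the control arrays (grey) and the Ntep arrays (red). Symbols mark experiments 1 to 3, lines join the arrays of an experiment, and bars are group means of log2 signal. The 3 Ntep arrays lie below the 3 control arrays for 8 probes and overlap them for the 4 probes of Ifnar1 and Ifnar2.

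Ifnb1 encodes interferon beta, the ligand. Its probe (chr4:88168023-88168082) read 479, 1058 and 862 on the Ntep arrays of experiments 1, 2 and 3, and 6055, 4440.4 and 2857 on the control arrays. The groups did not overlap, and the Ntep array of experiment 1 was the lowest while the control array of experiment 1 was the highest. Group means were 800 ± 294 and 4451 ± 1599 (SD, n = 3). The log2 difference was -2.49 (SE 0.40, 95% interval -3.47 to -1.50, limma adjusted p = 0.0335), a 5.60-fold lower signal. Within experiments the differences were -3.66, -2.07 and -1.73.

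Ifnar1 and Ifnar2 encode the chains of the receptor that binds interferon beta, and neither was called. The brightest of the 3 Ifnar1 probes (chr16:91510673-91510732) read 2308, 4443 and 3929 on the Ntep arrays and 2743.5, 4213 and 4187 on the control arrays. In both groups experiment 1 was the low one, and the groups overlapped. Its log2 difference of -0.09 had a 95% interval of -0.87 to 0.70 (adjusted p = 0.886). The other Ifnar1 probes differed by 0.36 (interval -0.15 to 0.86, adjusted p = 0.343) and by -0.09 (-0.83 to 0.66), the last of these well above background on 3 of the 6 arrays. The Ifnar2 probe (chr16:91394044-91394103) read 10624, 15031 and 15691 against 12455.5, 15766 and 14992. These ranges overlapped as well, with a log2 difference of -0.08 and an interval of -0.62 to 0.46 (adjusted p = 0.851). A change of either chain by 2-fold in the direction of Ifnb1 lay outside these intervals for all 4 probes. Some smaller changes in either direction lay within them, to an extent that differed by probe.

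Stat2 encodes the transducer that binds IRF9. Its probe (chr10:127729834-127729893) read 27315, 59251 and 35839.5 on the Ntep arrays against 109987, 122064 and 90692 on the control arrays. The groups were apart, with the Ntep array of experiment 2 nearest to the controls. The log2 difference was -1.46 (SE 0.32, 95% interval -2.24 to -0.69), and it missed the threshold (adjusted p = 0.0560) but passed with experiments as blocks (adjusted p = 0.0399). It was -2.01, -1.04 and -1.34 within experiments 1, 2 and 3.

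Irf9 encodes the DNA-binding partner of STAT2. The probe (chr14:56228806-56228865) read 22053, 24429.9 and 22053 on the Ntep arrays, where equal values are equal ranks after quantile normalisation, and 49908, 45573 and 44520.3 on the control arrays. Every control array was above every Ntep array. The log2 difference was -1.03 (SE 0.16, adjusted p = 0.0300), with -1.18, -0.90 and -1.01 within experiments.

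Irf1 encodes a transcription factor of the interferon gamma response and has probes for 2 transcript records. The bright probe (chr11:53590746-53590805) read 46682, 55445 and 45230.4 on the Ntep arrays and 109354, 88813 and 69452 on the control arrays. The groups were apart, but the control arrays differed among themselves as well, and the log2 difference of -0.84 (SE 0.22, 95% interval -1.39 to -0.30) missed the threshold (adjusted p = 0.0835). The dim probe (chr11:53591817-53591876) was set to the floor of 20 on each Ntep array and read 171, 70.1 and 56.4 on the control arrays, of which 2 were well above background. With no Ntep array well above background, a 1.77-fold lower signal was taken as its bound there. This sets the higher of the lowest detectable signal and the probe's own signal against the mean of all control arrays. The bound holds for these normalised values only. The probe's adjusted p was 0.0468, but it entered the test through the control arrays alone. Normexp background correction reduced its log2 difference from -2.13 to -0.65 (adjusted p = 0.116), a smaller fall than the bound.

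Irf3 encodes the constitutive factor that is activated by nucleic acid sensing. Its probe (chr7:52257700-52257759) read 19956, 22371 and 18637 on the Ntep arrays, and 35238, 36687 and 36220.3 on the control arrays, which were close to one another. The log2 difference was -0.83 (SE 0.16, adjusted p = 0.0430), and -0.82, -0.71 and -0.96 within experiments. Of the 7 genes, Irf3 alone did not have its largest fall in experiment 1.

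Irf7 encodes the interferon-induced factor that amplifies interferon gene expression. Its probe (chr7:148450664-148451014, an interval longer than the probe) read 319.9, 2355 and 1790.4 on the Ntep arrays and 3385, 7216 and 6615 on the control arrays. Experiment 1 was low in both groups, so the groups were apart by less than the spread within either. The log2 difference of -2.30 had the widest interval of the 12 probes (SE 0.80, -4.24 to -0.36) and did not pass (adjusted p = 0.146). With experiments as blocks it did (adjusted p = 0.0443), and it was -3.40, -1.62 and -1.89 within experiments.

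Socs1 encodes the inhibitor that binds and blocks the Janus kinases. The probe (chr16:10783951-10784010) read 10591, 9695 and 8867 on the Ntep arrays and 20141, 17959 and 15763 on the control arrays. In both groups experiment 1 was the highest and experiment 3 the lowest, and the groups were apart. The log2 difference was -0.88 (SE 0.18, adjusted p = 0.0481), and its values within experiments, -0.93, -0.89 and -0.83, were the closest to one another among the 7 genes.

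**Figure D2:**
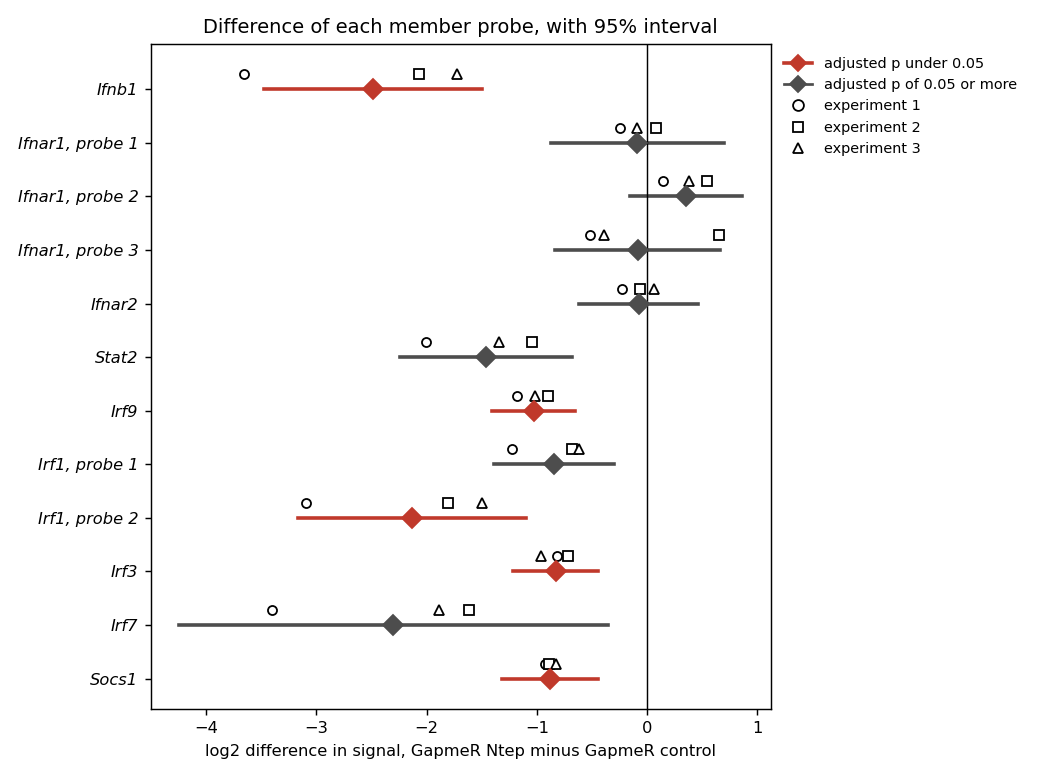
Log2 difference in signal (horizontal axis, Ntep minus control) of each of the 12 probes, with diamonds for the limma estimate over 3 against 3 arrays, bars for its 95% interval and open symbols for the difference within each experiment. The 8 probes of the 7 genes other than the receptor chains lie left of 0 in every experiment. Their limma estimates run from -0.83 for Irf3 to -2.49 for Ifnb1, and the intervals of the 4 receptor probes include 0.

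Over these 7 genes, the largest fall was in experiment 1 for 6 (brightest probe) and in experiment 3 for Irf3. Among all 4686 tested probes with every Ntep array below every control array, experiment 1 held the largest fall for 64.8%. Experiment 1 is the one in which the Ntep probe was higher on the array labelled GapmeR Ntep, and whether the members' falls move with the level of Ntep cannot be told from 3 experiments. Without both arrays of experiment 1, log2 differences were -1.90 for Ifnb1, -1.75 for Irf7, -0.96 for Irf9, -0.84 for Irf3 and -0.86 for Socs1. In an exact two-sided permutation test each of the 7 genes gave p = 0.1, the smallest value that 3 against 3 arrays allow.

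The promoters are shown because ISRE and gamma-activated sites (GAS) are the letters that the factors encoded here bind. RefSeq promoter windows (GRCm38.p6, 250 bases before to 50 after a transcript start) were matched for all 9 genes, in 11 windows, and searched on both strands. The ISRE core searched was GAAA, any 2 bases and GAAA again, found in 3.44% of all 32851 windows, and the GAS was TTC, any 3 bases and GAA, found in 8.30%. The ISRE core was found for Stat2 and Socs1, and the GAS for Irf1, Ifnar1 and Ifnar2. For Ifnb1, Irf3, Irf7 and Irf9 neither motif was in these windows, and a match is a description of the letters, not of binding. In the stretches below, written 5′ to 3′ on the strand of the gene, capitals mark the match. It ends 212 bases before the start for Stat2 (chr10:128270248-128270325, plus strand, the ISRE core read on the opposite strand), 73 for Socs1 (chr16:10785570-10785659, minus strand, with a second match that overlaps the capitals) and 81 for Irf1 (chr11:53769884-53769972, plus strand).
Stat2 ISRE core: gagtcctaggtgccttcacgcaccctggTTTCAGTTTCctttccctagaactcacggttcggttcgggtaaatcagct
Socs1 ISRE core: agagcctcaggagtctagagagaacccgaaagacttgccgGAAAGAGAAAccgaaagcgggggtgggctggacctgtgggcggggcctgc
Irf1 GAS: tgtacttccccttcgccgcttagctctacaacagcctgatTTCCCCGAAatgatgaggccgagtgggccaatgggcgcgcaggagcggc
These 3 genes had log2 differences of -1.46, -0.88 and -0.84 (brightest probe), inside the range of the genes whose windows hold neither motif, which was -0.83 for Irf3 to -2.49 for Ifnb1. Ifnar1 and Ifnar2, the others with a GAS, were not called.

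Around the 9 genes, 49 further genes of the pathway were on the array and 45 were tested. Of these, 10 were called lower (1 of them, Stat4, reached the minimum signal in the control group only) and 0 higher, where 3.18% of all genes tested were lower by the same rule. Their median log2 difference was -0.35, against 0.06 over all genes tested.

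Among the interferon ligands, 5 of 11 tested genes were called lower, 9 had a negative log2 difference, and the median was -1.58. Ifna4, one of the many interferon alpha genes that lie with Ifnb1 on chromosome 4, read 33.8, 147 and 91.4 on the Ntep arrays against 2081, 1412 and 852 on the control arrays. That was a log2 difference of -4.14 (SE 0.61, adjusted p = 0.0288), with only 1 of the 3 Ntep arrays well above background. Ifna13, Ifna12 and Ifna5 differed by -2.35, -2.17 and -2.05 and were called too, as was Ifnab, whose signal was 4.01-fold lower. Of the 3 Ntep arrays, 2 were well above background for Ifna13, 1 for Ifna12 and 3 for Ifna5 and Ifnab. Another, dimmer probe of Ifna12 went the other way, with a log2 difference of 0.37 (adjusted p = 0.572). Ifna2 (-1.58, adjusted p = 0.0625) and Ifna1 (-0.68, adjusted p = 0.236) were not called. Interferon alpha genes are close copies, so a probe may bind RNA of several of them, and these values are uncertain as to the gene. The ISRE core was in the promoter windows of 10 of the 17 matched ligand genes, among them Ifna4, whose match nearest to the start ends 108 bases before it (chr4:88841658-88841747, plus strand).
Ifna4 ISRE core: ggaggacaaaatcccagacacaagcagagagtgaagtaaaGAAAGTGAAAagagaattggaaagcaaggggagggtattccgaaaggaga

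The receptor genes next to Ifnar1 and Ifnar2 on chromosome 16 were not called either. Ifngr2, a chain of the interferon gamma receptor, differed by 0.04 (adjusted p = 0.908) and Il10rb, a chain shared by interferon lambda and interleukin receptors, by 0.31 (adjusted p = 0.325). Their probes lie in mm9 at chr16:91563982-91564041 and chr16:91425744-91425803, on both sides of Ifnar1. Ifngr1, the ligand-binding chain for interferon gamma, lies on chromosome 10 (probe chr10:19329923-19329982) and was called lower, at 10920 ± 2413 against 27464 ± 5251 (SD, n = 3; log2 difference -1.34, SE 0.24, adjusted p = 0.0376). Whether the chromosome 16 chains differ from Ifngr1 was not tested.

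Of the 4 Janus kinases none was called. At an unadjusted limma p under 0.05, 1 of 4 was lower, as were 12.5% of all tested probes. Jak1, a kinase of all interferon receptors, differed by -0.09 (adjusted p = 0.770) and Jak2, which serves the interferon gamma receptor, by -0.79 (adjusted p = 0.0721, and 0.0482 with experiments as blocks). Tyk2, a kinase bound to IFNAR1, differed by -1.39 (adjusted p = 0.258, and 0.0337 with blocks). The fit with blocks called 7.31% of all tested probes lower. Of 6 other STAT genes tested, 4 had a negative log2 difference and the median was -0.64. By limma 2 were called lower, beside 3.18% of all genes tested. At an unadjusted p under 0.05, 4 were lower, and with blocks 3 were called. Stat4, one of those called (adjusted p = 0.0243), was not well above background on any Ntep array. Its bound, taken as for the dim Irf1 probe, was 1.29-fold lower there. Its probe reached the minimum signal for testing through the control arrays alone. Stat3 (0.16) and Stat5b (0.22), the brightest of those not called, had adjusted p values of 0.540 and 0.487.

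Of 3 other interferon regulatory factors tested, all had a negative log2 difference and Irf5 alone was called lower, at 1021 ± 434 against 4423 ± 1264 (log2 difference -2.18, SE 0.43, adjusted p = 0.0472, and 0.0509 with experiments as blocks). Irf2, which can oppose IRF1, differed by -0.76 (adjusted p = 0.229), with every Ntep array below every control array. The genes of the IRF2 binding proteins, Irf2bp2 (0.45) and Irf2bp1 (0.12), were not called (adjusted p = 0.237 and 0.887).

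The inhibitors were divided. Of the 7 other SOCS genes none was called, and their median log2 difference was 0.21. At an unadjusted limma p under 0.05, 0 were lower and 1 higher, beside 12.5% of all tested probes in each direction. Socs3, an inhibitor induced by interleukin signalling, differed by -0.26 (adjusted p = 0.599) and Socs7 by 0.21 (adjusted p = 0.494). Among 9 PIAS, USP18 and phosphatase genes, Usp18 alone was called. With experiments as blocks 2 were called lower, Usp18 and Ptpn6 (-1.07, adjusted p = 0.0472), and 2 higher, Pias4 (0.84, adjusted p = 0.0414) and Ptpn1 (0.77, adjusted p = 0.0415). That fit called 7.31% of all tested probes lower and 6.54% higher. Usp18 encodes an interferon-induced protease that removes ISG15 from proteins and blocks signalling at IFNAR2. Its signal was 22568 ± 11049 on the Ntep arrays against 93995 ± 8811 on the control arrays (log2 difference -2.20, SE 0.42, adjusted p = 0.0436). Ptpn11 (-0.08) and Ptpn2 (0.27), the brightest of the others, had adjusted p values of 0.805 and 0.491.

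**Figure D3:**
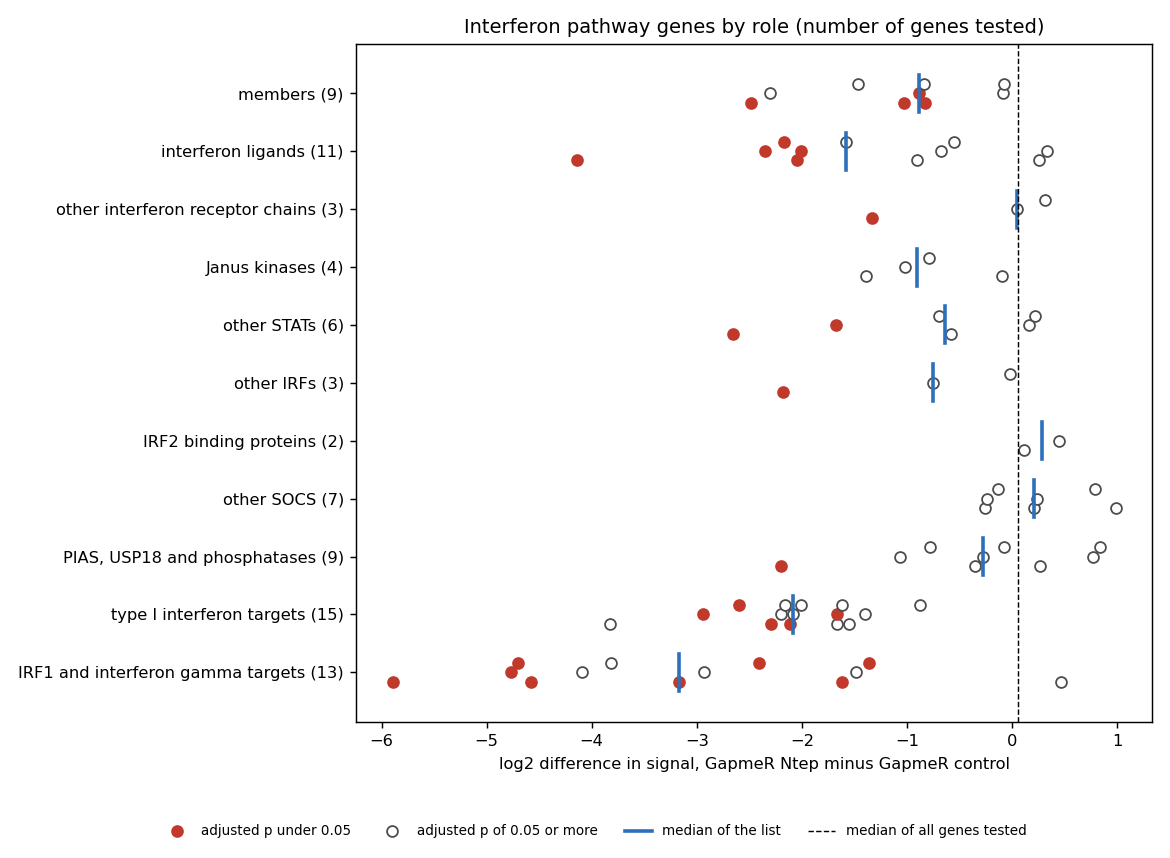
Log2 difference in signal (horizontal axis, Ntep minus control) of each tested gene by role, 1 probe per gene, with filled points for an adjusted p under 0.05. Blue bars are list medians and the dashed line is the median of all genes tested, 0.06. Filled points lie on the left only, and the medians run from 0.28 for the IRF2 binding proteins to -3.17 for the IRF1 and interferon gamma targets.

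Among genes that these factors are known to switch on, 5 of 15 type I and 8 of 13 gamma targets were called lower. Of all genes tested 3.18% were. All 15 type I interferon targets tested had every Ntep array below every control array, as had 15.1% of all tested probes. Their median log2 difference was -2.08. Cmpk2, a mitochondrial nucleotide kinase, differed by -2.94, Ifit3 by -2.60, Rsad2, which encodes the antiviral enzyme viperin, by -2.30, Xaf1 by -2.11 and Eif2ak2, which encodes the RNA-activated kinase PKR, by -1.67. Rtp4 (-0.88, adjusted p = 0.207) and Bst2 (-2.01, adjusted p = 0.0833), the brightest of the rest, were not called. With experiments as blocks 10 of the 15 were called lower, as were 7.31% of all tested probes. Of the 13 targets of IRF1 and interferon gamma, 12 had a negative log2 difference and the median was -3.17. Ciita, the activator of MHC class II genes, was the exception (0.47, adjusted p = 0.454). Psmb8 and Psmb9, subunits of the immunoproteasome, differed by -5.89 (1 of 3 Ntep arrays well above background) and -4.70, Nlrc5, the activator of MHC class I genes, by -4.77, and the GTPase genes Iigp1 and Gbp2 by -4.58 and -3.17. Cxcl10 (-1.49, adjusted p = 0.0522) and Igtp (-2.93, adjusted p = 0.0616) were not called.

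The genes whose log2 signal followed Irf9 most closely over the 6 arrays, of 16703 genes compared, were Fnbp1 (Pearson r 0.999), Tcf12 (0.998), Rnpepl1 (0.997), Por (0.996) and Macf1 (0.996). For Stat2 they included a lincRNA probe with no gene name (0.999), Zfp62 (0.998), Pld2 (0.998) and Shisa5 (0.997). With 6 arrays in 2 groups, such values largely restate the group difference and the arrays share their normalisation, so they are given as a description.

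**Figure D4:**
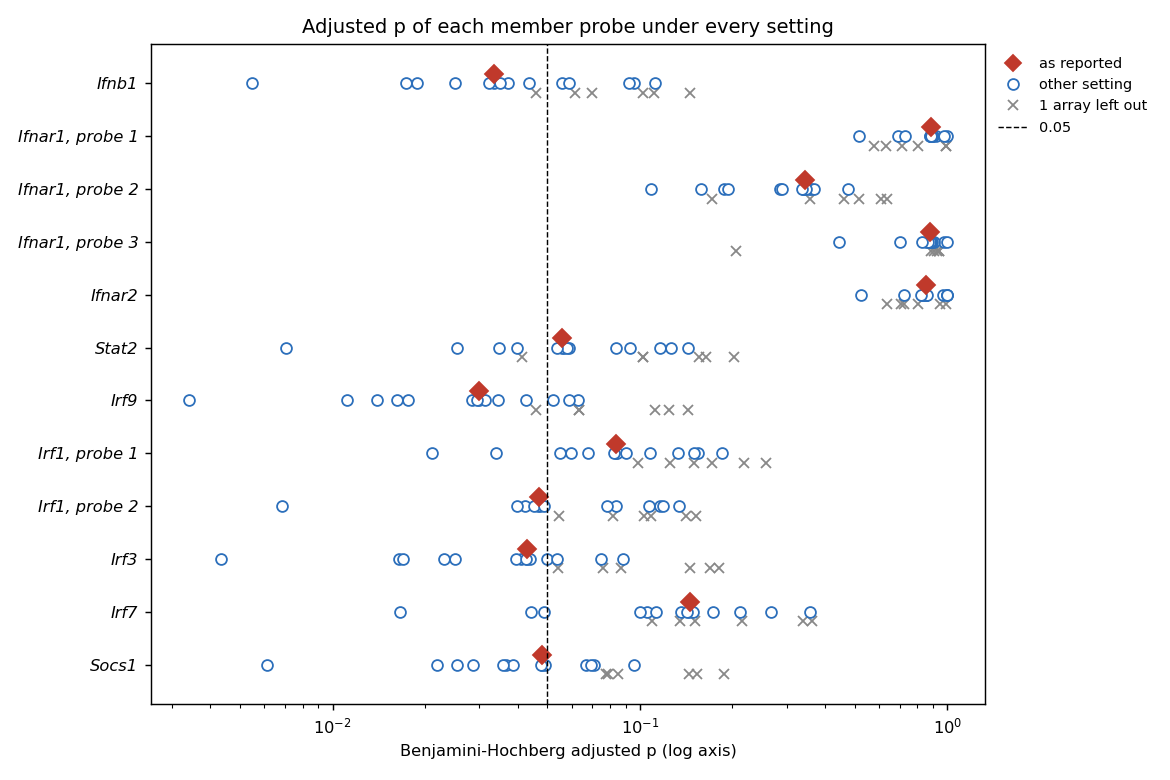
Benjamini-Hochberg adjusted p (horizontal log axis) of each of the 12 probes as reported (red), under other settings (blue circles) and with 1 array left out (grey crosses), with 0.05 as a dashed line. Values of the 7 genes whose groups were apart stand on both sides of 0.05, and those of Ifnar1 and Ifnar2 are all above it.

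Among the alternatives, Irf9 passed in 12 of 20, Irf3 in 11, Ifnb1 and Socs1 in 10, Stat2 in 5, Irf7 in 3 and the bright Irf1 probe in 2. Leaving out the Ntep array of experiment 1 or 3, or any 1 control array, left 0 members called by limma. Those fits called 0% to 1.18% of all tested probes lower. At an unadjusted p under 0.05, 6 or 7 of the 9 were lower in them, as were 8.93% to 13.3% of all probes tested. Without the Ntep array of experiment 2, 3 were called (Ifnb1, Stat2 and Irf9), with 2.9% of all probes lower.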

How the data were processed

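The authors scanned 1-colour Agilent mouse arrays and deposited, per array, background-subtracted intensities on a linear scale (Feature Extraction 10.7.3.1), and a table of intensities that were quantile normalised with values under 20 set to 20. Per the file headers, probe coordinates are mm9. Flags (0 or 1) deposited with the intensities mark spots above background, saturated spots and outliers. The sources name different array formats.

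Spots of a probe were averaged, arrays quantile normalised, values under 20 set to 20 and log2 taken. Only probes whose mean signal reached 50 in at least 1 group were fitted with limma 3.58.1 (R 4.3.3), unpaired as in the methods, with two-sided Benjamini-Hochberg adjusted p over all of them. Intervals are 95%. GEO's labels give no experiment number: it comes from the study's supplementary documentation, and residuals of arrays of one experiment correlated at 0.254 to 0.466, those of others at -0.327 to 0.126, so a fit with experiments as blocks was run too. Limma's p-values measure the spread over 3 arrays per group, moderated towards that of all fitted probes. The number of arrays limits the precision. The signal behind the comparisons was not saturated on any array.

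Members and lists were chosen with earlier results of these data known. Named were all members, Ntep, in each list up to 5 called genes by size and the 2 brightest not called, and the 5 genes closest to Irf9 and to Stat2. Csf1r, Itgam, Tyk2, Ptpn6, Pias4, Ptpn1 and Ciita were named after their values were seen. Some genes that this rule covers are not reported here. Alternatives were other normalisations, floors, filters, variance models and the methods' t-test, outlier spots left out, each array left out and, chosen after seeing the data, both arrays of experiment 1 left out and the spread shared over all probes. The steps were tested on simulated data. Promoters came from RefSeq. Figures were drawn with matplotlib 3.10.9 (Python 3.11.15, pandas 2.3.3).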

Additional observations from a re-analysis of the deposited data

How the results depend on the processing

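Directions held more widely than calls. The 7 lower genes kept their sign under every alternative computed for them, while their calls changed with several. The authors' normalised values, a floor of 5 and removal of outlier spots called the same 5 members by any probe (Ifnb1, Irf9, Irf3, Socs1 and, by its dim probe only, Irf1). These fits called 3.01% to 3.36% of all tested probes lower.

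With experiments as a replicate block, Stat2 (-1.46, adjusted p = 0.0399) and Irf7 (-2.30, 0.0443) passed, 7 members were called in place of 5 and 10 type I targets in place of 5. That block changed no other member's call, and it called 7.31% of all tested probes lower. When the spread was shared over all probes, the many at the floor included, 3 members were called (Irf9, Irf3, Socs1). Ifnb1 stood at -2.49 with an adjusted p of 0.0557. This fit also called 3 other pathway genes, 2 type I targets and 2.66% of all tested probes lower. With the replicate block as well, 1 member was called (Socs1) and 1 passed the fold of 2 at p 0.01. Ifnb1 (-2.49, adjusted p = 0.112), Irf9 (-1.03, 0.0520) and Irf3 (-0.83, 0.0539) were lost. Called lower besides were 0 other pathway genes, 0 type I targets, 1 gamma target and 1.31% of all tested probes.

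Scaling to the 75th percentile raised the median log2 difference of all probes by 0.14. Under it Ifnb1 alone was called (1 member), Irf9 (-0.85), Irf3 (-0.68) and Socs1 (-0.79) were lost, 6 other pathway genes were called, and Ifnar2 (0.015) and the dim Ifnar1 probe (0.19) changed sign. Normexp background correction turned the dim Ifnar1 probe too (0.016) and ended the call of the dim Irf1 probe (-0.65, adjusted p = 0.116), with 4 members called. Without a filter on dim probes 2 members were called (Irf9, Irf3), Ifnb1 (-2.49) and Socs1 (-0.88) were lost, and 2 other pathway genes, 0 type I targets and 3 gamma targets were called. Here both the spread and the adjustment take in more probes. Of all tested probes, 2.32% were called lower by 75th percentile scaling, 2.34% by normexp and 0.488% without the filter. The fit reported above called 3.21%.

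The methods' t-test called 2 members after adjustment (Irf9, Irf3) and lost Ifnb1 (-2.49) and Socs1 (-0.88). It called 0 other pathway genes, 0 type I targets and 3 gamma targets. Of all tested probes it called 0.445% lower, against 3.21% in the fit reported above. At a fold of 2 and an unadjusted p under 0.01 it took 2 members and limma 4. Trend called Stat2 (-1.46), Irf1 (-0.84) and 11 type I targets, with 5% of all probes lower. Array weights called Stat2 (-1.46), Irf1 (-0.76), Irf7 (-2.01), 20 other pathway genes and 14 type I targets, but also 15.7% of all probes lower and 17.4% higher. Restriction to probes well above background called Stat2 (-1.46) and 9 type I targets and dropped the dim Irf1 probe. It called 6.5% of all probes lower.

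Without both arrays of experiment 1, Irf7 (-1.75) passed, and Ifnb1 (-1.90), Irf9 (-0.96), Irf3 (-0.84) and Socs1 (-0.86) did not. The dim Ifnar1 probe turned (0.13). This fit called 2 members (Irf7, and Irf1 by its dim probe), 3 other pathway genes and 1.64% of all tested probes lower. Leaving out 1 array gave -2.77 to -2.15 for Ifnb1, -0.29 to 0.20 and -0.41 to 0.10 for the bright and dim Ifnar1 probes, -0.18 to 0.10 for Ifnar2, -1.77 to -1.21 for Stat2, -1.08 to -0.98 for Irf9, -1.01 to -0.68 for Irf1, -0.90 to -0.77 for Irf3, -2.85 to -1.41 for Irf7, -0.97 to -0.80 for Socs1 and -1.06 to 0.13 for Ntep. It left 0 to 3 members called, and 2 to 4 at a fold of 2 and p under 0.01. Called lower besides were 0 to 5 other pathway genes, 0 to 7 type I targets and 0 to 9 gamma targets. Of all tested probes 0% to 2.9% were called lower. Without the Ntep array of experiment 3 or the control array of experiment 2, limma called 0 probes of any gene. At an unadjusted p under 0.05, 7 and 6 members were lower there, as were 10.1% and 8.93% of all tested probes.

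With 4 bases inside it in place of 3, the GAS was found for 2 members, Irf9 and Stat2. These are other genes than the 3 with the first form (Irf1, Ifnar1 and Ifnar2). The form with 4 bases was in 6.95% of all promoter windows. The cause of these changes was otherwise not tested. Signal near background limits the dim probes of Irf1 and Ifnar1 and those of Stat4, Ifna4, Ifna12, Ifna13 and Psmb8.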
